A study of Mus musculus with 2 samples.

Results

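The immunoglobulin light chain genes were followed in single-cell RNA sequencing of the popliteal lymph node (PLN), the node behind the knee. Members were chosen by name alone, as every gene whose symbol starts with Igkv, Igkc, Iglv or Iglc, which gave 168 of 32285 genes. They comprised 160 Igkv genes, the single Igkc gene, 3 Iglv genes and 4 Iglc genes. There were 2 libraries, one of the Advanced stage of arthritis (over 8 months old) and one of the Early stage (5 to 6 months old). In each, 6 PLNs of 3 male mice had been combined. All mice were TNF transgenic (TNF-Tg) on a C57BL/6 background and overexpress human TNF, the Early mice as well. Live nucleated cells were sorted with no lineage gate, and mice cannot be separated within a pool.

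A B cell builds its light chain by joining a V gene to a J gene in front of a constant gene, first at the kappa locus (Igkv, Igkj, Igkc) and, if this fails, at the lambda locus (Iglv, Iglj, Iglc). A mature B cell is expected to express a single light chain protein, a state called light chain exclusion, and most mouse B cells use kappa. Precursors first pair their heavy chain with the surrogate light chain (Vpreb1, Vpreb2, Igll1), and plasma cells later transcribe the chosen light chain at a very high rate and link IgM and IgA with the J chain.

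The Advanced and Early libraries held 83148059 and 67610110 unique molecular identifiers (UMIs, single counted transcripts) in 8183 and 8221 cells, and 20 deposited barcodes occurred in both. B-cell-like clusters held 5458 Advanced and 7295 Early cells, 66.7% and 88.7% of all cells, with medians of 7382 and 6567 UMIs, and all 16 of their markers were seen in a larger share of them than of the other cells. Because each stage is 1 library, there is no replicate check and no test. Stage, age and library cannot be told apart, and the 95% intervals given below cover counting error only.

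All 161 kappa members lie on chromosome 6 and all 7 lambda members on chromosome 16 of GRCm38. A UMI was found for 140 members, and the 28 without one were Igkv genes. Of the Igkv genes, 100 are annotated as V genes and 60 as pseudogenes, and the pseudogenes held 1.59% and 1.74% of the Igkv UMIs of Advanced and Early B-cell-like cells. Of 103 V genes with a coding transcript, 49 are at least 95% identical to their nearest relative and 52 share a stretch of 90 bases with another member, so reads of such genes could be split or dropped. The protocol reads the 3′ end of a transcript, which in a light chain lies in the constant gene, so V genes gave few counts and constant genes many.

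The constant genes carry the kappa and lambda calls below, and their last 120 coding bases are therefore shown, 5′ to 3′, with capitals at the positions where the 3 genes, set side by side without gaps, do not all have the same base. Iglc2 and Iglc3 were 96.2% identical over their coding sequence, against 73.5% and 74.8% for Iglc1 with Iglc2 and with Iglc3, so UMIs of Iglc2 and Iglc3 are the least certain to be placed.
Iglc1: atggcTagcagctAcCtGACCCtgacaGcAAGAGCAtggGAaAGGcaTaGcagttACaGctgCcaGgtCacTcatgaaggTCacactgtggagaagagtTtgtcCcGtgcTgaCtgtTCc
Iglc2: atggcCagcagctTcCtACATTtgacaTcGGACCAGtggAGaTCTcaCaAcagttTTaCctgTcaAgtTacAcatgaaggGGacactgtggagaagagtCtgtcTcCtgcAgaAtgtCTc
Iglc3: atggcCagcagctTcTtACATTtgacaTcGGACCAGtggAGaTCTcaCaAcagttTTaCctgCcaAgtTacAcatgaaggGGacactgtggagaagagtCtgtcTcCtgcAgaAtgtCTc
These sequences were read from GENCODE M21 transcripts and lie on the minus strand at chr16:19061755-19061874, chr16:19198539-19198658 and chr16:19065368-19065487, within the constant exons. Iglv1 and Iglv2 (96.9% identical) are shown in the same way, because they mark lambda cells and differ at 4 of their last 120 coding bases.
Iglv1: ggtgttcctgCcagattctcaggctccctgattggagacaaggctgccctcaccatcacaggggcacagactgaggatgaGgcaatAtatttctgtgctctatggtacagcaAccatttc
Iglv2: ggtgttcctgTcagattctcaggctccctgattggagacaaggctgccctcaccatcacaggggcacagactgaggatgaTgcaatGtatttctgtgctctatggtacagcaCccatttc
They lie on the minus strand at chr16:19085017-19085136 and chr16:19260401-19260520, in the V exon.

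In B-cell-like cells, Igkc was the most abundant member, and transcripts of lambda constant genes were found beside it in nearly every cell. Igkc reached 6315 and 6067 CPM (UMIs of the gene scaled to a library total of 1e+06) in Advanced and Early B-cell-like cells, with medians of 47 and 41 UMIs per cell. Iglc2 reached 1478 and 1371 CPM, with medians of 10 and 8 UMIs, and had a UMI in 98.9% and 98.2% of Advanced and Early cells. Iglc3 reached 1156 and 1078 CPM, with medians of 9 and 7 UMIs. Iglc1 had a different distribution, with 530 and 439 CPM but a median of 1 UMI per cell in both libraries, and single cells with up to 190 Advanced and 243 Early UMIs. Iglc4 stayed at 2.07 and 2.59 CPM.

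The variable lambda genes were rare in the same cells. Iglv1 had 420 and 450 UMIs in Advanced and Early B-cell-like cells (9.15 and 8.28 CPM), and Iglv3 had 494 and 660 UMIs (10.8 and 12.1 CPM). Iglv2 had 71 and 30 UMIs, of which 1 Advanced cell held 29.

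The first comparison between the stages asked whether light chain genes differed in level in B-cell-like cells. Of the 168 members, 5 reached 10 CPM in a library (Igkc, Iglc1, Iglc2, Iglc3 and Iglv3). None of the 5 was over 2-fold apart by its whole interval, beside 0.117% of 6827 genes called higher and 0% called lower in Advanced cells. The median ratio, Advanced over Early, was 1.07 over the 5 members and 1.04 over all tested genes. Igkc had a ratio of 1.04 (1.04 to 1.05), which fell to 0.977 with edgeR's trimmed mean scaling, so its direction depended on the scaling. Iglc1 had a ratio of 1.21 (1.19 to 1.23), between 1.13 and 1.29 under every alternative tried. Ratios of 1.08 (1.07 to 1.09) for Iglc2 and 1.07 (1.06 to 1.09) for Iglc3 came to 1.01 with the trimmed mean scaling. For Iglv3 the ratio was 0.886 (0.787 to 0.997). Iglv2, below the level filter, had a ratio of 2.8 (1.8 to 4.45), and of 1.84 (1.11 to 3.11) without the cell with the most Iglv2 UMIs in each library.

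Cells of other lineages, which are not known to make light chains, gave the background level. Igkc at 6315 and 6067 CPM in Advanced and Early B-cell-like cells was 6.72-fold (6.59 to 6.85) and 6.75-fold (6.39 to 7.13) above the 940 and 899 CPM of T-cell-like cells (median 10779 and 9885 UMIs). It was 9.57-fold and 8.69-fold above the 660 and 698 CPM of myeloid cells. The usual T-cell-like cell was lower still, with medians of 3 and 2 Igkc UMIs, while 14.7% and 18.1% of T-cell-like cells held 20 or more UMIs of the constant genes. When cells were classed by their marker UMIs instead of by cluster, B-cell-like cells were 22.8-fold and 36.5-fold above T-cell-like cells. The B cell gene Cd79a was also found in T-cell-like cells, at 353 and 403 CPM, with a UMI in 55.4% and 44.2% of them, and its part in the Igkc level was not tested. B-cell-like cells had 23.4 and 22.6 Iglc2 UMIs per 100 Igkc UMIs, and T-cell-like cells 18.8 and 17.2.

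After each cell was thinned to 2000 UMIs, Iglc2 had a UMI in 87.1% and 84.9% of Advanced and Early B-cell-like cells against 16.2% and 19.6% of T-cell-like cells. For Iglc3, the thinned share was 84.9% and 82.9% in B-cell-like cells against 12.1% and 13.0% in T-cell-like cells. Both genes were thus detected in a larger share of B-cell-like than of T-cell-like cells of the same library. This does not hold against every non-B class, since pDC-like cells had Iglc3 near the B-cell-like level.

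**Figure D1:**
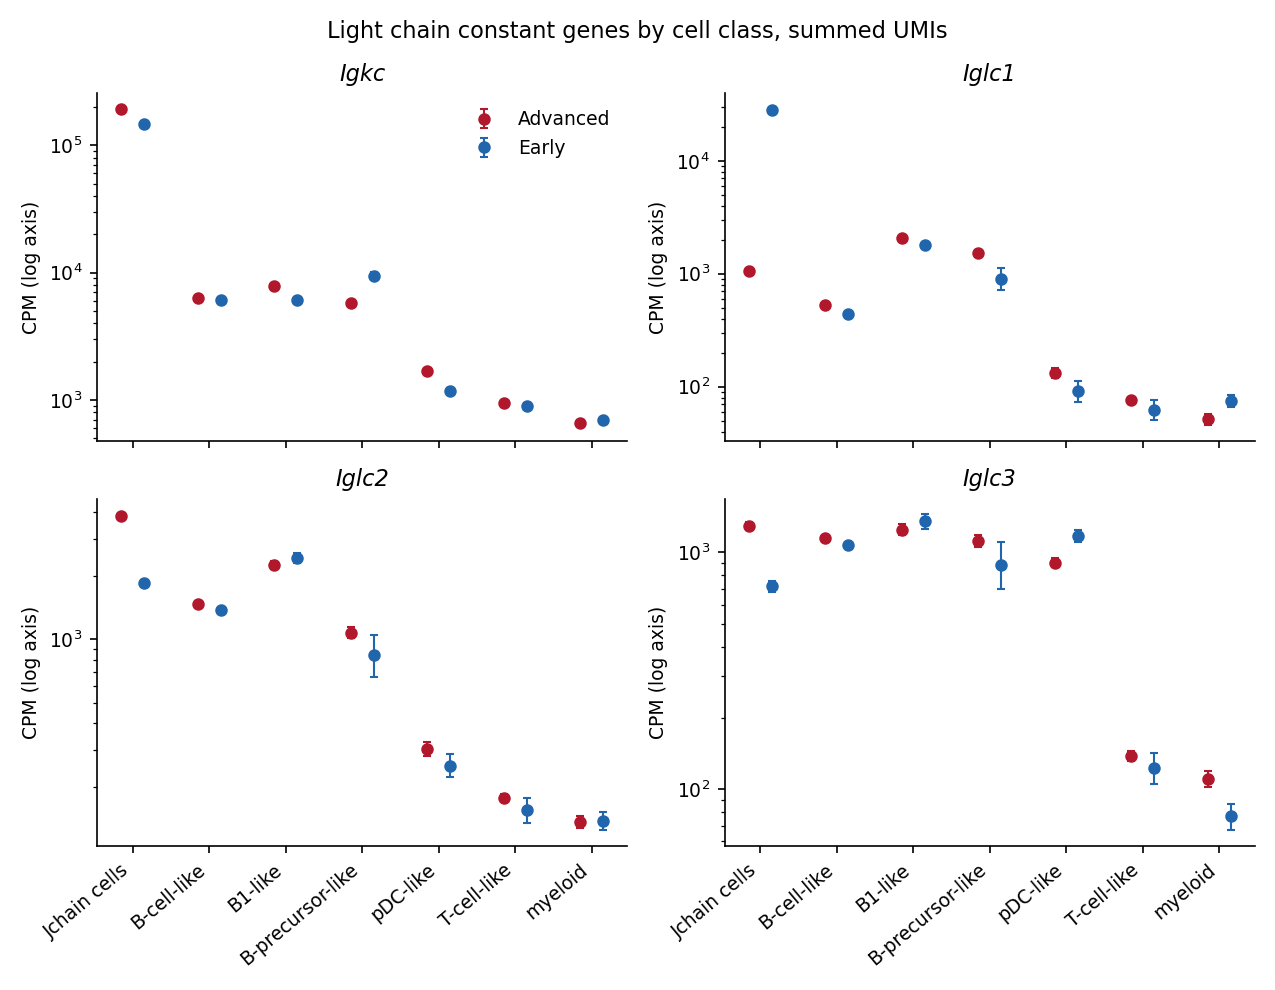
Summed level of Igkc, Iglc1, Iglc2 and Iglc3 (CPM, log axis) in 7 cell classes of the Advanced (left of each pair) and Early library, with exact Poisson 95% intervals where wider than the point. Igkc was 6315 and 6067 CPM in B-cell-like cells against 940 and 899 in T-cell-like cells, and Iglc3 was 904 and 1173 CPM in plasmacytoid-dendritic-like (pDC-like) cells.

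Each cell with 20 or more constant gene UMIs was called kappa when Igkc made up 0.8 or more of them, lambda when the Iglc genes did, and both in between. This left 5436 Advanced and 7222 Early B-cell-like cells. By these calls 78.3% of Advanced cells (77.1% to 79.3%) and 74.7% of Early cells (73.6% to 75.7%) had both chains. Kappa cells made up 18.0% and 22.1%, and lambda cells 3.75% (3.26% to 4.29%, 204 cells) and 3.23% (2.83% to 3.66%, 233 cells). The fullest bin of the Iglc share lay at 0.25 to 0.3 in both libraries, and a small separate group of cells lay at 0.9 to 1.0. At the same limit, 67.1% of 149 Advanced and 68% of 25 Early T-cell-like cells had both chains, as had 71.4% of myeloid cells in each library. Lambda calls made up 6.71% of Advanced T-cell-like and 7.94% of Advanced myeloid cells, and 0% in the Early library. Calls of both chains were thus not particular to B-cell-like cells.

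The share with both chains therefore counts RNA, not protein, and moved with the chosen limit. It was 45.4% and 42.4% in the Advanced and Early library at a limit of 0.7, and 95.4% and 94.6% at 0.9. When Iglc1 stood in for all Iglc genes, a choice made after seeing the data, 5.28% and 3.88% had both chains. Since the cells with both chains drop out of the denominator, the lambda share of kappa and lambda cells, 17.3% Advanced (15.1% to 19.5%) and 12.7% Early (11.2% to 14.3%), moved as widely, to 8.48% and 7.16% at 0.7 and 58.7% and 45.9% at 0.9. With cells thinned to 2000 UMIs it was 13.1% in Advanced and 12.9% in Early cells. The limit of 20 constant UMIs was kept, while Igkc averaged 12.8 Advanced and 12.4 Early UMIs per thinned B-cell-like cell. Cells with few constant UMIs therefore dropped out, and depth cannot be told apart from this selection in the smaller gap between the stages. Lambda cells as a share of all called cells were steadier, between 1.72% and 4.64% in the alternatives tried, and their intervals overlapped between the stages. After thinning the order of the stages turned, with 4.02% of Advanced and 4.57% of Early cells.

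**Figure D2:**
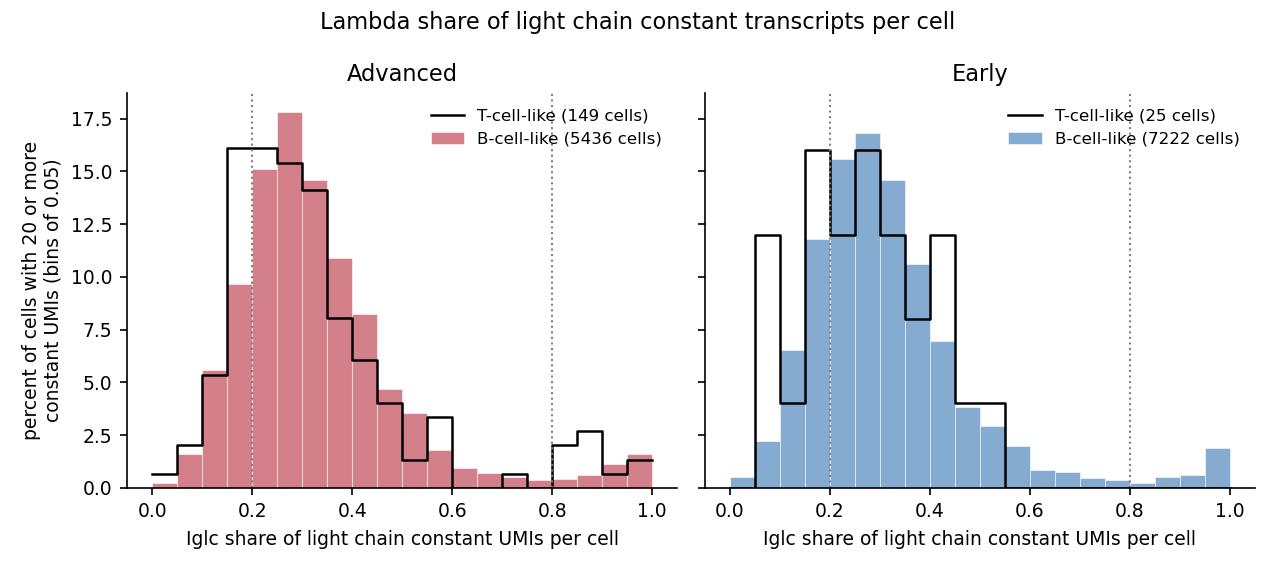
Share of the Iglc genes among light chain constant UMIs (x axis) against the percent of cells with 20 or more such UMIs (y axis, bins of 0.05), for B-cell-like cells (bars) and T-cell-like cells (line) of the Advanced (left) and Early (right) library. Dotted lines mark the limits of 0.2 and 0.8, between which lie 78.3% of Advanced and 74.7% of Early B-cell-like cells.

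Lambda cells were led by different constant genes. Their low Igkc, with medians of 4 UMIs in Advanced and 2 in Early cells, follows from the calling rule and is given as a description. Iglc1 led in 57.4% (50.3% to 64.2%) of the Advanced and 50.6% (44.0% to 57.2%) of the Early lambda cells. Iglc2 led in 35.3% and 42.1%, and Iglc3 in 7.35% and 7.3%. Cells with both chains differed, since Iglc1 led the Iglc genes in 4.89% and 4.19% of them, behind Iglc2 (60.2% and 59.7%) and Iglc3 (34.9% and 36.1%).

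The lambda V genes were most frequent in lambda cells, although the calls did not use them. Iglv1 had 86.3 and 80.5 UMIs per 100 Advanced and Early lambda cells led by Iglc1, against 6.21 and 4.95 UMIs per 100 cells with both chains and 3.07 and 2.44 per 100 kappa cells. Lambda cells led by Iglc2 had 26.4 and 31.6, and the 15 and 17 led by Iglc3 had 40 and 94.1 per 100 cells. Of the cells given Iglv1 as their V gene (rule below), 27 of 60 Advanced and 27 of 61 Early were lambda cells, and their median Iglc1 was 39.5 and 25 UMIs. Cells given Iglv2 had medians of 50 and 41 Iglc2 UMIs, and 5 of 9 Advanced and 2 of 2 Early were lambda.

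Iglv3 followed this pattern only weakly, with 13.2 and 16.7 UMIs per 100 Advanced and Early lambda cells, against 9.05 and 9.64 per 100 cells with both chains and 8.38 and 6.07 per 100 kappa cells. Cells given Iglv3 had medians of 50 and 38.5 Igkc UMIs and 1 Iglc1 UMI in both libraries, and 3 of 31 Advanced and 3 of 46 Early were lambda. Iglv3 was found in 8.15% and 8.16% of Advanced and Early B-cell-like cells, more often than Iglv1 (5.88% and 4.87%), but never at more than 3 UMIs in a cell. Of cells given a kappa V gene, 1 of 716 Advanced and 0 of 589 Early were lambda, which allows a share of up to 0.776% and 0.624% by the exact intervals.

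Across B-cell-like cells (5458 Advanced, 7295 Early), the CPM of Iglc2 and Iglc3 had Pearson correlations of 0.252 and 0.193, and Iglc1 with Igkc of -0.178 and -0.202. All of these genes share the library and the total of the cell, and Iglc2 and Iglc3 share most of their sequence, so the values are a description only. Among the 5 B-cell-like clusters, the lambda share lay between 1.8% and 6.35% in the Advanced and between 2.1% and 5.63% in the Early library.

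V gene use was read from cells with 2 or more V gene UMIs in which 1 gene held at least 0.6 of them. This gave a V gene to 817 Advanced (15%) and 700 Early (9.6%) B-cell-like cells, spread over 91 genes. A further 556 Advanced and 595 Early cells had 2 or more V gene UMIs with no gene at that share, and the source of these mixed counts was not tested. The 12 leading V genes were given to 59.0% of Advanced and 60.1% of Early cells with a V gene.

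Igkv12-44 was given to 8.32% of Advanced and 8.86% of Early cells, a ratio of 0.94 (0.656 to 1.35). For Igkv1-117 the shares were 8.94% and 7.43%, and for Iglv1 7.34% and 8.71%. Igkv1-135 followed with 6.85% and 4.71%. None of these 4 differed beyond counting error. Igkv5-43, Igkv17-127, Igkv2-109, Igkv12-46, Igkv17-121 and Igkv10-96 each had between 2.43% and 4.86%, with ratio intervals that include 1.

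Among the 25 V genes given to 10 or more cells of a library, ratios ran from 0.359 to 2.91 and the interval excluded 1 for 3 genes. Igkv6-15 was given to 13 Advanced (1.59%) and 31 Early cells (4.43%), a ratio of 0.359 (0.173 to 0.707). It came to 0.903 when a single V gene UMI was enough and turned to 1.07 after thinning to 2000 UMIs. Of all V gene UMIs, without a call per cell, Igkv6-15 held 2.12% in Advanced and 2.89% in Early cells. The size and direction of the difference thus varied with the way of counting. Iglv3 was given to 31 Advanced (3.79%) and 46 Early cells (6.57%), a ratio of 0.577 (0.354 to 0.93), which lay between 0.534 and 0.76 in the alternatives that gave a value. Igkv15-103 was given to 17 Advanced (2.08%) and 5 Early cells (0.714%), a ratio of 2.91 (1.03 to 10.1), and no Advanced cell was given it at 5 V gene UMIs. By the same rule Igkv6-17, Igkv9-120 and Igkv19-93 had ratios of 0.619, 0.467 and 2, with intervals that include 1.

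**Figure D3:**
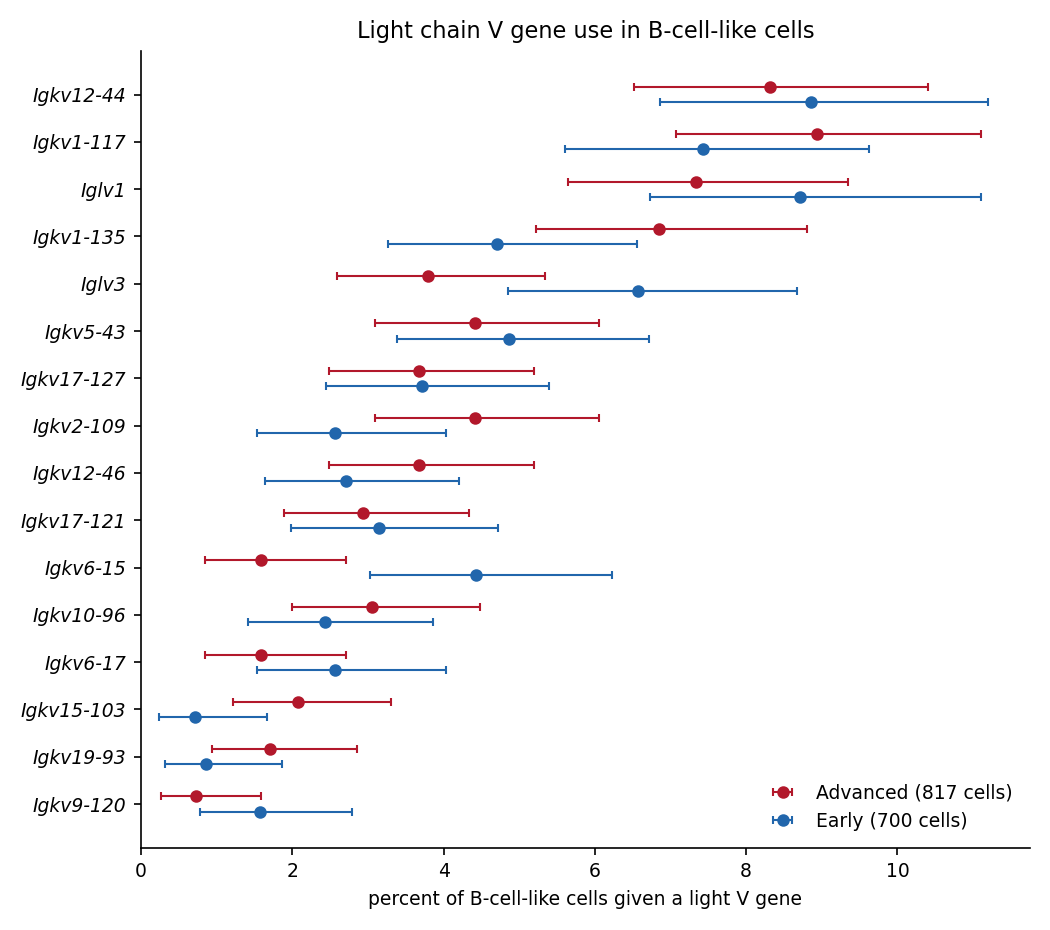
Percent of B-cell-like cells with a V gene (x axis) that were given each named light chain V gene (y axis), with exact 95% intervals, for 817 Advanced (upper point of each pair) and 700 Early cells. The intervals of the stages overlap for most genes, and Igkv6-15 had 1.59% of Advanced against 4.43% of Early cells.

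By family, a grouping made after these values were seen, the Igkv6 genes were given to 6.85% of Advanced and 13.1% of Early cells, a ratio of 0.522 (0.367 to 0.735) that includes Igkv6-15. The Igkv2 genes had 5.88% and 3.43%, a ratio of 1.71 (1.03 to 2.92). The Igkv1 genes had 18.6% and 14.9%, and the Igkv12 genes 14.2% and 13.4%. By position, Igkv genes within 1000 kb of Igkj1, the first kappa J gene, were given to 43.9% of Advanced (40.3% to 47.7%) and 51.1% of Early cells (47.0% to 55.2%) with a kappa V gene. Genes beyond 2000 kb had 50.5% (46.8% to 54.2%) and 42.3% (38.3% to 46.4%), and the 57 genes between them 5.58% and 6.6%. The 2 ends of the locus, a part of which is inverted in the mouse, thus supplied most kappa V calls in both libraries. The 57 genes between them held a larger share of Igkv UMIs than of calls, 11.7% in Advanced and 13.8% in Early B-cell-like cells. Igkv4-51, one of them, had 43 and 55 UMIs but was given to 0 cells, so shares of calls need not equal use of the locus.

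Cells with 20 or more Jchain UMIs, whatever their cluster, are called Jchain cells here and were taken out of the other classes. There were 51 Advanced (0.623%) and 44 Early (0.535%) such cells, and light chain genes made up 19.9% and 18.1% of their UMIs, against 0.96% and 0.906% in B-cell-like cells. With 10 Jchain UMIs as the limit there were 85 and 77, and with 50 there were 31 and 28. Igkc reached 190891 and 147958 CPM, 30.2-fold and 24.4-fold above B-cell-like cells. They were of unlike kinds. In the plasma-cell-like cluster lay 28 Advanced and 17 Early Jchain cells, with medians of 11691 and 11127 Igkc UMIs, and in a cycling unnamed cluster led by histone genes lay 19 and 25, with medians of 214 and 253.

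Jchain cells were mostly kappa by the same calls. Of the Advanced cells 43 were kappa and 8 had both chains, and of the Early cells 34 were kappa and 8 had both. None of the 51 Advanced cells was lambda (up to 6.98% by the exact interval), and 2 of the 44 Early cells were. Those 2 held 29743 Iglc1 UMIs with 5 of Igkc, and 17413 Iglc1 UMIs with 51 of Igkc, and both expressed Ighm. The first had 220 Iglv1 UMIs and the second 67 Iglv2 UMIs. They held nearly all Iglc1 of the Early Jchain cells, so the summed level, 1048 CPM in Advanced against 28414 CPM in Early Jchain cells, described 2 cells and not the stage.

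**Figure D4:**
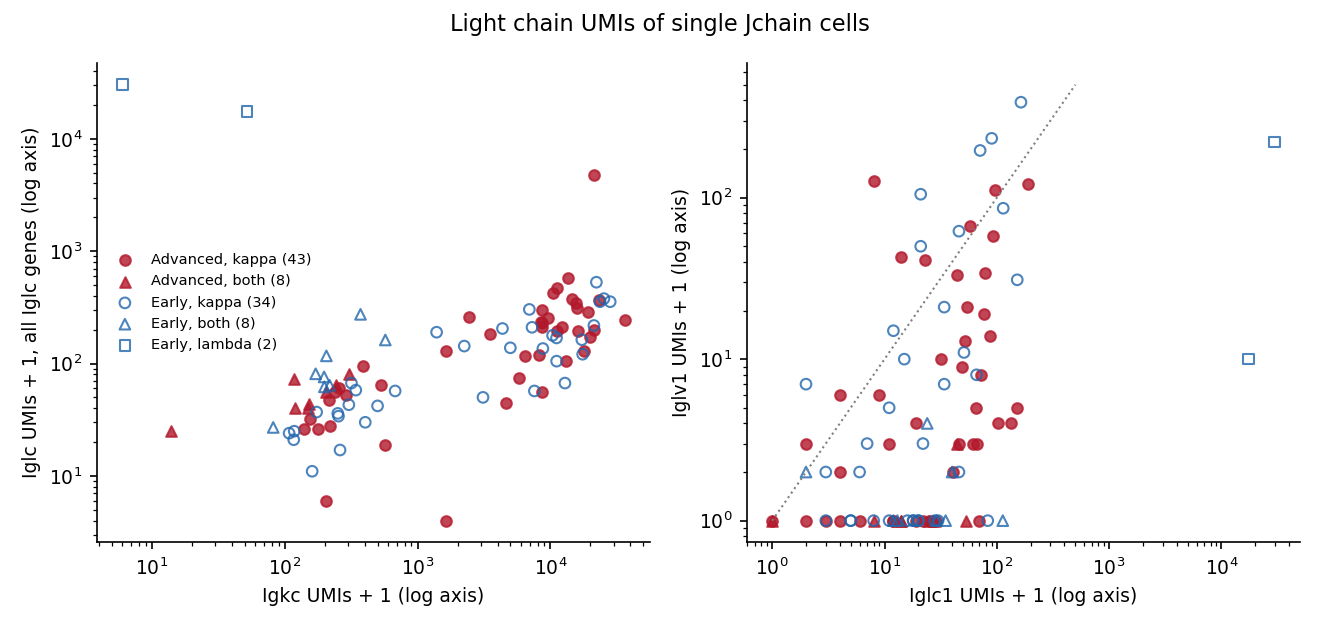
UMIs + 1 of single Jchain cells, log axes, Advanced filled and Early open. On the left, Igkc (x) against all Iglc genes (y) shows 2 Early lambda cells apart from the rest, and on the right, Iglc1 (x) against Iglv1 (y) shows kappa cells above the dotted line of equal UMIs, 7 Advanced and 8 Early among those with 1000 or more constant UMIs.

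In kappa Jchain cells, Iglv1 was out of step with the constant gene it is usually joined to. In the 31 Advanced and 20 Early kappa Jchain cells with 1000 or more constant UMIs, Iglv1 had 749 and 1224 UMIs, or 42.8 and 116 per 100 Iglc1 UMIs. Lambda B-cell-like cells led by Iglc1 had 1.54 and 1.46 per 100, and the Early lambda Jchain cell with Iglv1 had 0.74. Iglv1 exceeded Iglc1 in 7 of the 31 Advanced and 8 of the 20 Early kappa cells, and reached 125 and 389 UMIs in 1 cell, beside 8582 and 28163 Igkc UMIs. No stretch of 25 coding bases of Iglv1 occurs in an annotated Igkv coding sequence. Pseudogenes, non-coding bases and inexact matches were not compared, so this does not tell where the counts came from. Calls of Iglv1 as the V gene, 2 of 35 Advanced and 5 of 29 Early Jchain cells, fell on kappa cells but for the Early lambda cell. The cause of the Iglv1 counts was not tested.

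V genes were given to 35 Advanced and 29 Early Jchain cells. Igkv10-96 was given to 10 of the 35 Advanced cells (28.6%, 14.6% to 46.3%), against 3.06% of Advanced B-cell-like cells (1.99% to 4.48%). In the Early library it was given to 1 of 29 Jchain cells (3.45%, 0.0873% to 17.8%), against 2.43% of B-cell-like cells (1.42% to 3.86%). A further Early kappa cell had 154 Igkv10-96 UMIs but was given no V gene, because it also had 195 Iglv1 UMIs. Another had 37 Igkv10-96 UMIs beside 104 of Iglv1 and was given Iglv1. Neither is counted here, so the Early count depended on the Iglv1 counts. The 10 Advanced cells given it had 190, 190, 174, 133, 126, 97, 75, 15, 15 and 2 Igkv10-96 UMIs. The Early cell given it had 170, so all but 3 Advanced cells were far above the limit of 2. All 11 cells were led by an IgG constant gene, Ighg2b in 7 of the Advanced cells and in the Early one. Its last 120 coding bases are shown against Igkv10-94, a neighbour of 95.4% identity, with capitals where the genes differ.
Igkv10-96: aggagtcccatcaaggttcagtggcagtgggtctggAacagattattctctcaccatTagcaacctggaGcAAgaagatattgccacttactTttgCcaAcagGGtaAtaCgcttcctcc
Igkv10-94: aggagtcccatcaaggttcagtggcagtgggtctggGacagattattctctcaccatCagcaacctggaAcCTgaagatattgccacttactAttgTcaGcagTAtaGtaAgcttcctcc
Both lie on the minus strand of chromosome 6, at chr6:68631963-68632082 and chr6:68704508-68704627, in the V exon.

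The heavy chain V gene of the same cells fell into few kinds. Of the 10 Advanced cells with Igkv10-96, 7 had Ighv1-26 and 3 had Ighv1-76 as the leading heavy V gene. The Early cell had Ighv1-76, with 274 UMIs, and a second Early Jchain cell, given Iglv1, had Igkv10-96 as its leading kappa V gene beside Ighv1-76. A further Early Jchain cell, given no V gene, had Igkv10-96 as its leading kappa V gene beside Ighv5-6. Outside the Jchain cells a pair was counted at 1 or more UMIs of each gene, a looser rule than the leading genes used above. By it, Igkv10-96 with Ighv1-26 was found in 6 Advanced and 9 Early cells, 3 and 8 of them B-cell-like and 1 Advanced natural-killer-like. Igkv10-96 and Ighv1-26 were each found in 161 and 160 of 8132 Advanced and 143 and 162 of 8177 Early cells. How many cells would hold both without a true pair was not tested. Igkv10-96 with Ighv1-76 was found in 3 Advanced cells, 2 plasma-cell-like and 1 B1-like, and in 2 Early B-cell-like cells. Cells that share a V gene pair may be a clone or not, and without junction sequences or a mouse of origin this was not tested.

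Other V genes were given to 2 or more Jchain cells of a library. Igkv17-127 was given to 5 Advanced and 0 Early cells, and the 5 had 5 different heavy V genes. Igkv14-111 was given to 4 Advanced cells, with 3 to 60 of its UMIs, and to 1 Early cell, with 2. Of the Advanced ones, 3 shared Ighv1-19 and an IgG constant gene. Igkv4-55 was given to 2 Advanced cells, both with Ighv1-80 and Ighm. Igkv12-46 was given to 1 Advanced cell, with 2 of its UMIs, and to 2 Early cells, with 159 and 168. No Advanced cell was given Igkv8-24, Igkv12-44, Igkv14-126, Igkv1-117 or Igkv17-121, against 3 Early cells each for the first pair and 2 each for the other genes. In these Early cells Igkv8-24 had 2 to 68 UMIs, Igkv12-44 2 to 192, Igkv17-121 4 to 29 and Igkv1-117 2 to 3. Some of these calls thus lay at or near the limit of 2 UMIs.

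Both Early cells with Igkv14-126 had Ighv11-2 and Ighm, with 150 and 73 Igkv14-126 UMIs. This pairing is known in the mouse from B-1 cells that bind phosphatidylcholine. Outside the Jchain cells the pair, again counted at 1 or more UMIs of each gene, was found in no Advanced cell and in 1 Early cell, which was B1-like. The last 120 coding bases of Igkv14-126 and of Igkv14-111 (91.5% identical), a related gene given to more Advanced than Early Jchain cells, are shown with capitals where they differ.
Igkv14-126: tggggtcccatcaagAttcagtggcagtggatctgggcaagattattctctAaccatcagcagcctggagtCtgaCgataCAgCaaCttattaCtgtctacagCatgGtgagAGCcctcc
Igkv14-111: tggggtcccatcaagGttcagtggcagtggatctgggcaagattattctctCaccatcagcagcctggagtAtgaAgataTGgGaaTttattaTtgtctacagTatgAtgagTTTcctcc
Both lie on the plus strand, at chr6:67896523-67896642 and chr6:68256750-68256869, in the V exon.

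Counting the leading kappa and heavy V genes with 2 or more UMIs each, 38 Advanced and 23 Early Jchain cells had a pair, of 27 and 18 kinds. Pairs held by 2 or more cells numbered 4 in each library, and 1 pair, Igkv10-96 with Ighv1-76, occurred in Jchain cells of both.

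**Figure D5:**
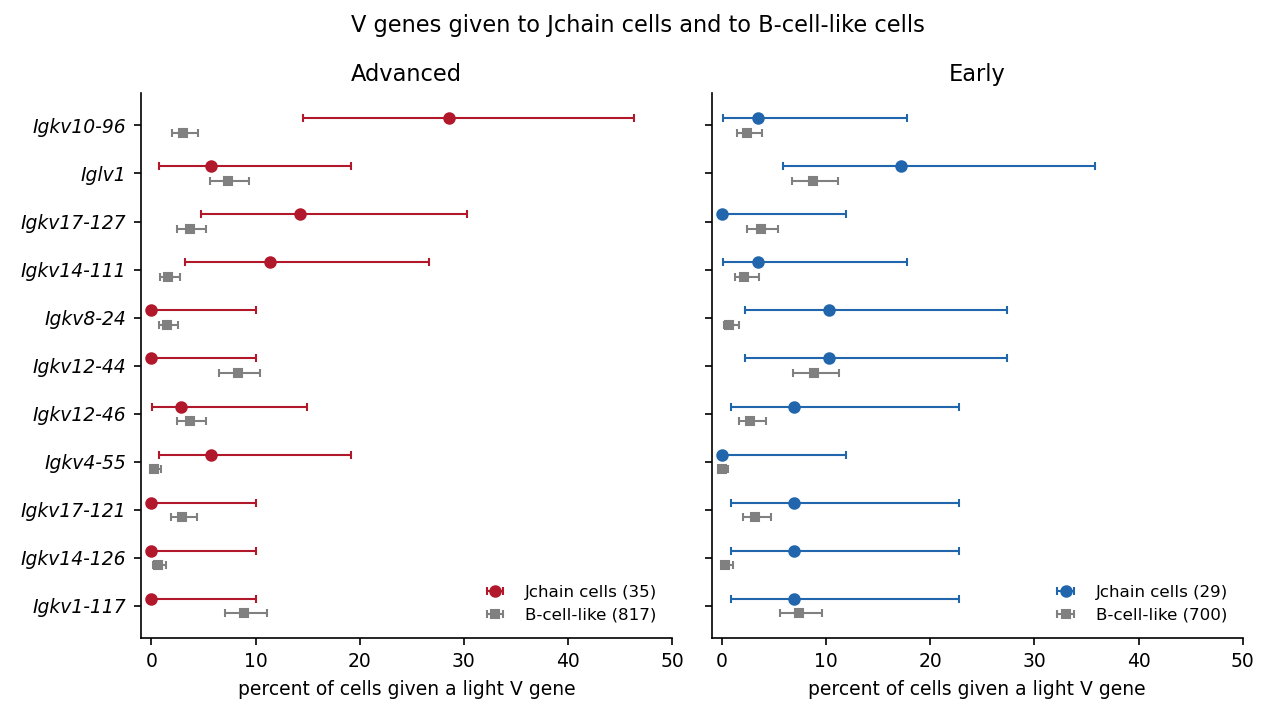
Percent of cells with a V gene (x axis) given each V gene (y axis) that was given to 2 or more Jchain cells of a library, for Jchain cells (circles) and B-cell-like cells (squares) of the Advanced (left) and Early (right) library, with exact 95% intervals. Igkv10-96 stands at 28.6% of 35 Advanced Jchain cells against 3.06% of 817 B-cell-like cells.

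B-precursor-like cells, 120 Advanced and 9 Early, had light chain transcripts together with genes of light chain rearrangement. Of their 10 markers, 9 were seen in at least 10% of the cells of each library. Among the 9 Early cells a single cell with a UMI meets that limit, so it says little there. Igkc reached 5775 and 9478 CPM, 0.914-fold (0.891 to 0.938) and 1.56-fold (1.46 to 1.67) the level of B-cell-like cells. Of the 846 Early Igkc UMIs, 350 lay in 1 cell, so the Early ratio leaned on that cell. Iglc1 reached 1538 and 896 CPM, 2.9-fold and 2.04-fold the B-cell-like level. Iglc2, in contrast, was at 0.726 and 0.613 of the B-cell-like level. They also had more V UMIs for their constant UMIs, 2.99 (2.57 to 3.46) and 2.84 (1.82 to 4.22) Igkv UMIs per 100 Igkc UMIs against 1.51 and 1.31 in B-cell-like cells. An unnamed cluster of low UMI counts had 2.4 and 2.29, so a higher ratio was not particular to precursors.

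The surrogate light chain was detected in a minority of the cluster. Vpreb1 reached 785 and 101 CPM and Igll1 297 and 22.4 CPM, with a UMI in 28.3% and 11.1% of cells for Vpreb1 and 18.3% and 11.1% for Igll1. Vpreb3, a relative of Vpreb1, had 3093 and 2857 CPM and was found in all cells. Rag1, a subunit of the recombinase, had 253 and 246 CPM. The 23 Advanced cells with 3 or more UMIs of Vpreb1, Vpreb2 and Igll1 had a median of 15 Igkc UMIs (2 to 216), against 39 (1 to 198) in the other 97. Classed by those UMIs in the whole library, 56 Advanced and 3 Early cells had 1493 and 2987 CPM of Igkc. Marker classes, which add a limit on T cell marker UMIs to the same rule, kept 42 and 3 cells with 1439 and 2987 CPM. The 42 cells are part of the 56, so this is not a separate check. The Igkc level thus turned on whether precursors were chosen by cluster or by surrogate light chain UMIs.

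Of the Advanced B-precursor-like cells with 20 or more constant UMIs, 16 of 102 were lambda (15.7%, 9.24% to 24.2%), against 3.75% of Advanced B-cell-like cells (3.26% to 4.29%). None of 8 Early precursor cells was lambda, which allows up to 36.9%. The V genes with the most UMIs were Iglv1 (25 Advanced and 2 Early), Igkv1-135 (19 and 0), Igkv19-93 (17 and 1), Iglv3 (14 and 3) and Igkv1-110 (14 and 1). No gene held more than 6 UMIs in a precursor cell.

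B1-like cells, 61 Advanced and 38 Early with medians of 15163 and 13636 UMIs, had a higher Iglc1 level than B-cell-like and B-precursor-like cells. Iglc1 reached 2061 and 1816 CPM, 3.89-fold (3.72 to 4.06) and 4.14-fold (3.89 to 4.4) that of B-cell-like cells, with medians of 16 and 16.5 UMIs. Iglc2 was 1.52-fold and 1.77-fold and Igkc 1.25-fold and 1.01-fold. Their calls were still mostly both chains, in 53 of 61 and 35 of 38 cells. Iglv1 led their V UMIs, with 14 in the Advanced and 12 in the Early library. Iglv3 (7 and 9), Igkv10-96 (15 and 3) and Igkv1-117 (4 and 12) were also found in both, but 1 Early cell held 10 of the 12 Igkv1-117 UMIs. Other leading V genes were found in 1 library only, with 25 and 0 of Igkv10-94, 24 and 0 of Igkv9-119, 13 and 0 of Igkv8-28 and 0 and 16 of Igkv3-12. All 13 Igkv8-28 UMIs lay in 1 cell, while those of Igkv10-94, Igkv9-119 and Igkv3-12 lay in 13, 13 and 7 cells.

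pDC-like cells, 126 Advanced and 65 Early, had Iglc3 without a matching level of the other members. Iglc3 reached 904 and 1173 CPM, 6.55-fold (6.14 to 6.99) and 9.55-fold (8.15 to 11.2) above T-cell-like cells, with medians of 17 and 18 UMIs per cell. Iglc2 reached 302 and 252 CPM, with medians of 1 UMI in both libraries, and Iglc1 132 and 90.6 CPM. There were 2.99 and 4.65 Iglc3 UMIs per Iglc2 UMI, against 0.782 and 0.786 in B-cell-like cells. Igkc reached 1706 and 1175 CPM, 1.81-fold and 1.31-fold above T-cell-like cells. At 2000 UMIs per cell, 72.0% and 76.9% of pDC-like cells had an Iglc3 UMI, against 12.1% and 13.0% of T-cell-like cells. Cd79a, as a sign of B cell RNA, reached 443 and 192 CPM against 353 and 403 CPM in T-cell-like cells.

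V gene transcripts in non-B cells were few. In 1871 Advanced and 451 Early T-cell-like, myeloid and other non-B cells there were 289 and 76 V UMIs, 0.154 and 0.169 per cell. The leading genes were Iglv3 (28 and 11), Iglv1 (34 and 3), Igkv1-117 (22 and 2), Igkv2-109 (16 and 7) and Igkv1-135 (13 and 2), all among the leading V genes of B-cell-like cells. A V gene was given to 19 and 6 of these cells.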

How the data were processed

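Single cells of PLNs from 1 Advanced and 1 Early pool of 3 mice were profiled with 10x 3′ chemistry. The deposited values are counts, UMIs per gene and barcode that the authors made with Cell Ranger, per the file headers 6.0.1 (the processing notes name 3.1 and 3.1.0, with mm10); free RNA was not removed. Cells with 200 or more genes were kept. Seurat 5.3.0 clusters (2000 variable features, 30 dimensions, resolution 0.5, no immunoglobulin gene or Jchain among the features) were named "-like" from markers. Members, lists and markers were chosen with earlier results of these data known, and names may differ from the study's. T-cell-like and myeloid (monocyte, macrophage and dendritic) cells gave the background. No doublets were removed. Levels are CPM with Poisson intervals, shares have Clopper-Pearson intervals and ratios exact conditional intervals, at 95%, from scipy 1.17.1. A gene counted as called when it reached 10 CPM in 1 library with its interval wholly beyond 2-fold. Named V genes were the 12 leading ones, the 6 highest and 6 lowest ratios of use by the interval end nearest to 1 among genes given to 10 or more cells of a library, those given to 2 or more Jchain cells of a library, and the 5 with most UMIs in precursors and the 5 with the highest CPM in non-B cells. Alternatives changed limits, classes, depth, doublets (scanpy 1.11.5 Scrublet) and scaling (edgeR 4.0.16). Calls were tested on simulated data. The simulated cells were split more clearly between chains, and led more clearly by a V gene, than the real ones. How well real cells were called cannot be read from this. Sequences and positions are from GENCODE M21 (GRCm38).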

Additional observations from a re-analysis of the deposited data

How the results depend on the processing

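With 1 library per stage, no replicate could be left out, and the limits are those of counting, of the calls and of pooled mice. No paired analysis was possible because the groups hold 1 library each and no result comes from a test. No light chain gene had an interval wholly beyond 2-fold between Advanced and Early B-cell-like cells under any of 8 other settings (the Iglv2 ratio itself lay between 1.84 and 2.9), while among all genes those higher numbered 147 without a minimum level (9 lower), 14 with totals without immunoglobulin, ribosomal and mitochondrial genes, and 1 at 50 CPM. Values below are Advanced, then Early. The lambda share was 8.48% and 7.16% at a chain share of 0.7, 58.7% and 45.9% at 0.9, 2.32% and 1.79% with Iglc1 alone (chosen after seeing the data), and 13.1% and 12.9% in cells thinned to 2000 UMIs. The share with both chains was 45.4% and 42.4%, 95.4% and 94.6%, and 5.28% and 3.88% under the first 3 of these, 73.8% and 69.9% with free RNA taken off, and 69.2% and 64.5% after thinning. B-cell-like over T-cell-like Igkc was 15.7 and 10.5 without the highest Scrublet scores, 22.8 and 36.5 with marker classes, 6.58 and 8.09 with edgeR factors and, in the Advanced library, 6.13 with the reduced totals; over myeloid cells it was 11.6 and 11.4, 17.8 and 19.4, 10.8 and 10.1, and 12 and 11.2. The 12 leading V genes held 53.3% and 53.5% with 1 V gene UMI, 73.0% and 72.2% with 5, 54.8% and 54.7% of V gene UMIs, and 69.3% and 63.8% after thinning. Iglv1 held 12.7% and 13.9% with 5 UMIs, 4.55% and 3.19% after thinning, and 6.35% of Early cells at a dominance of 0.9. Directions turned for Igkc with edgeR factors (0.977), for Igkv6-15 after thinning (1.07) and for Igkv15-103 at 5 V gene UMIs (0, among 63 Advanced and 36 Early cells). Jchain cells numbered 85 and 77 at 10 Jchain UMIs, with 1 lambda cell among the Advanced ones, and 31 and 28 at 50. Precursor Igkc was 1439 and 2987 CPM with marker classes and 1493 and 2987 CPM by surrogate light chain UMIs. Both precursor choices use the limit of 3 surrogate light chain UMIs, so they are not independent. The causes of these shifts were not tested.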
